A study of Mnemiopsis leidyi with 31 samples.

Results

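Embryos of the ctenophore Mnemiopsis leidyi, a comb jelly, at 5 hours post fertilization (hpf) were compared with embryos at 3 hpf, to ask which transcripts changed level while the embryo gastrulates. Members were chosen by their labelled hour: the 3 libraries of 5 hpf, with codes 2012_14, 2012_N3 and 2013_25, and the 3 libraries of 3 hpf, with codes 2012_N5, 2013_23 and 2013_33, which make 6 of the 31 libraries of a time course of 1 to 9 hpf. Every library was made from polyadenylated RNA of a pool of 100 to 200 whole embryos, and the animals came from the sea near Woods Hole. No genotype, strain or treatment was labelled, and the hour was the one stated condition that differed between the 2 groups. The year that begins the codes is not balanced between the hours. It is 2012 for 2012_14 and 2012_N3 of 5 hpf and 2012_N5 of 3 hpf, and 2013 for 2013_25 of 5 hpf and 2013_23 and 2013_33 of 3 hpf. The labels of one 3 hpf library gave the code 2013_N5 in one field and 2013_23 in another that matched a column of the count table, and the matching code was used. Codes that begin alike are called a code series here. The labels do not say whether they mark embryos of one spawning, so whether libraries of one group came from separate spawnings is not known, and all p-values measure only the spread between these libraries.

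Early animal embryos run on messenger RNA that the mother laid down in the egg, and later replace part of it with RNA transcribed from their own genome. Ctenophores cleave in a fixed pattern that sets small cells, the micromeres, apart from large yolky macromeres. During gastrulation the micromeres spread over the macromeres to form the outer layer, and the comb rows, tentacle apparatus and apical organ arise afterwards. In RNA of whole embryos, fewer cells of a type and less RNA per cell cannot be told apart. The transcripts are known here by the deposited identifiers alone: 0 of 31067 were found in the available gene table of the species (assembly crg_Mlei_v2), so no transcript is given a name or a role, and the embryonic stage was not checked against marker genes.

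Library totals were 80243917, 43079020 and 17608264 counts in the 5 hpf libraries 2012_14, 2012_N3 and 2013_25, and 61827837, 21244028 and 21893223 counts in the 3 hpf libraries 2012_N5, 2013_23 and 2013_33. Levels are in CPM, counts scaled to a common library total with a factor for composition (TMM), which spanned 0.880 to 1.20 in the 5 hpf libraries and 0.849 to 1.008 in the 3 hpf libraries. At least 1 CPM was reached by 10191 to 10600 transcripts at 5 hpf and by 9652 to 10495 at 3 hpf, and a floor on counts left 12415 transcripts to test. The following features of the libraries bear on every result. No transcript had fewer counts in the 4 hpf library 2012_N4 than in the 5 hpf library 2012_14, whose total equalled 68.8% of that of 2012_N4. Among the other library pairs that involve the 6, the closest to this had 450 such transcripts, and 2012_N4 entered no comparison of 5 with 3 hpf except the fits over more hours. The 4 libraries with a partner in their code series were most like that partner, at the other hour. Over the tested transcripts on the log2(CPM + 1) scale, 5 hpf 2012_N3 correlated with 3 hpf 2012_N5 at 0.985, and 5 hpf 2013_25 with 3 hpf 2013_23 at 0.972 (Pearson's r over transcripts of 2 libraries, a description). The 3 hpf library 2013_33 was most like 5 hpf 2013_25, at 0.961. The 5 hpf library 2012_14 was no nearer to its own hour, with 0.9505 to 5 hpf 2012_N3 and 0.9503 to 3 hpf 2013_33. Transcripts at least 2-fold apart from 2012_14 made 21.6% in 2012_N3 and 19.9% in 2013_25 of 5 hpf. They made 18.1% in 2012_N5, 22.7% in 2013_23 and 18.7% in 2013_33 of 3 hpf. Between libraries of one hour Pearson's r was 0.938 to 0.951 at 5 hpf and 0.9297 to 0.9608 at 3 hpf. The 3 hpf library 2013_33 was nearer to later embryos than the other 3 hpf libraries were, on the axis described next.

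The position of the 6 libraries along development was read from an axis made without them, the first principal component of the 16 libraries coded 2013 of other hours, which held 50.9% of their variance. The direction of the axis was set so that scores rose with the hour in those 16 libraries, so their order is partly fixed. Among the libraries coded 2013, scores were mostly higher at later hours. Some of the 16 belong to series 2013_2 and 2013_3, so the scores of 2013_23, 2013_25 and 2013_33 are not independent of their series. Series 2012_N did not lie in the order of its hours: its 1 and 2 hpf libraries scored 39.7 and 55.5, above every 5 hpf library, and its 7 hpf library -38.34, so that the scores of 2012_N3 and 2012_N5 place them beside the 2013 libraries and give no order within their own series. The 1 hpf library 2012_N7 had fewer counts than the 9 hpf library 2012_37 in 0 transcripts. The total of 2012_37 equalled 83.7% of that of 2012_N7, so the score of 2012_N7 may not be that of 1 hpf embryos. The 5 hpf libraries 2012_14, 2012_N3 and 2013_25 scored -37.04, -77.29 and -43.34, and the 3 hpf libraries 2012_N5, 2013_23 and 2013_33 scored -83.58, -94.91 and -33.39. The highest of the 6 scores thus belonged to a 3 hpf library, and the groups overlapped. The means were -52.55 ± 21.7 at 5 hpf and -70.62 ± 32.7 at 3 hpf (SD, n = 3 each), a difference of 18.1 with p = 0.5 in a two-sided exact permutation test, where 3 against 3 cannot go below 0.1. Without 2013_33 the difference was 36.7, and without 2013_23 it was 5.93. Within code series 5 hpf scored 51.6 above 3 hpf in 2013_2 and 6.29 above it in 2012_N. Of the 2013 libraries of other hours, the 1 hpf library 2013_21 scored -98.14, the 2 hpf library 2013_32 -60.0, the 4 hpf libraries 2013_24 and 2013_34 -70.82 and -5.26, and the 6 hpf library 2013_26 9.33. The library 2013_34 shares its code series with 2013_33 and 2013_32.

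**Figure D1:**
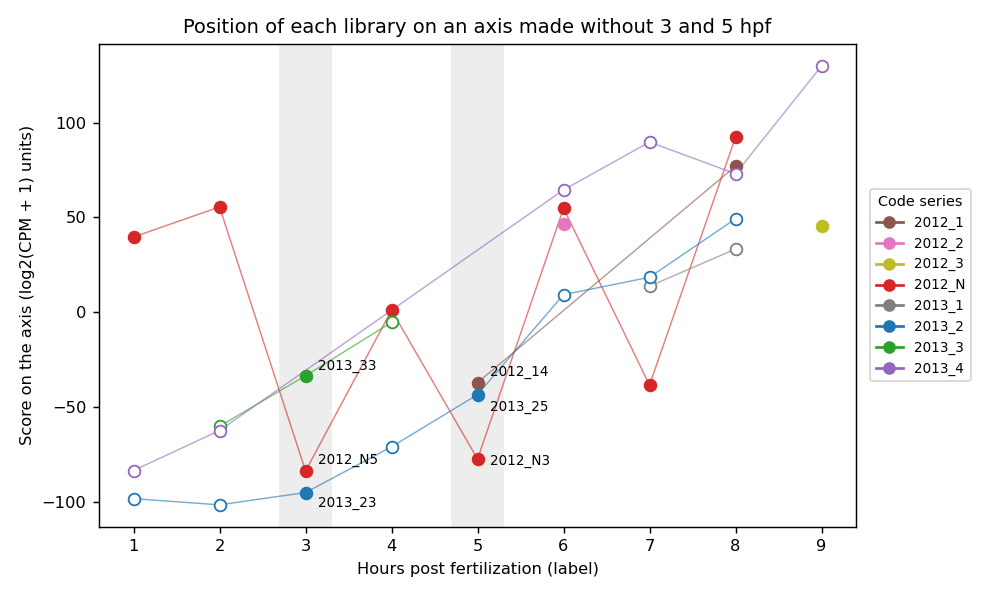
Score of each library on an axis of development (y, first principal component of log2(CPM + 1) of 16 libraries of other hours) by labelled hour (x, hours post fertilization). Points are single libraries, open where they made the axis, colours mark code series and lines join the libraries of a series. The hours 5 and 3 overlap, and 3 hpf 2013_33 (-33.39) lies above all 3 libraries of 5 hpf.

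Across all 6 libraries, no transcript was called at either hour: edgeR's quasi-likelihood test with Benjamini-Hochberg adjustment called 0 of 12415 higher at 5 hpf (0%) and 0 lower (0%). At an unadjusted p under 0.05 it had 64 transcripts (0.516%), 26 higher and 38 lower at 5 hpf. DESeq2 called 1 transcript, lower at 5 hpf, and had 116 at an unadjusted p under 0.05, and limma called 0 and had 88. The biological coefficient of variation was 0.600, and it was 0.299 where the fit used the 4 libraries of the 2 within-series pairs with code series as a block. That fit has 1 residual degree of freedom, called 0 of 12258 tested, and had 465 transcripts at an unadjusted p under 0.05. Without 3 hpf 2013_33 the fit of the other 5 libraries had 634 of 13534 tested at an unadjusted p under 0.05, 622 higher and 12 lower. Without 5 hpf 2012_N3 it had 388 of 12525, 57 higher and 331 lower, with 0 called in both. Without 5 hpf 2012_14, which exceeds 4 hpf 2012_N4 in no transcript, the fit had 22 of 12505, 2 higher and 20 lower, and 0 were called. A test of whether the change from 3 to 5 hpf differed between code years was run but cannot decide this. Of the 6 libraries, 2012_N5 alone is of 3 hpf and 2012, and 2013_25 alone is of 5 hpf and 2013.

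Since none passed, the transcripts with the smallest p in each direction are given as levels, among those with at least 10 CPM at the higher hour, no overlap of the hours and one direction in both pairs. Mle_006179, of 1738 bases, had 12.8, 17.95 and 18.8 CPM in the 5 hpf libraries 2012_14, 2012_N3 and 2013_25, against 68.5, 40.7 and 97.7 CPM in the 3 hpf libraries 2012_N5, 2013_23 and 2013_33. Each 3 hpf library was more than 2-fold above each 5 hpf library. Its log2 fold change of -2.06 ± 0.385 (SE, edgeR) had a Benjamini-Hochberg adjusted p of 1.00. Over the alternatives the adjusted p ran from 0.00947, in edgeR without the count floor, to 1, and DESeq2 gave 0.0377. It is the single transcript that DESeq2 called.

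Mle_009529, of 1922 bases, had 17.9, 26.5 and 26.6 CPM in the 5 hpf libraries 2012_14, 2012_N3 and 2013_25, against 43.8, 38.9 and 82.8 CPM in the 3 hpf libraries 2012_N5, 2013_23 and 2013_33. All 3 libraries of 5 hpf lay below all 3 of 3 hpf, with the widest distance between 2012_14 and 2013_33. The log2 fold change was -1.22 ± 0.377 (SE, edgeR) with an adjusted p of 1.00.

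Mle_023332, of 677 bases, had 91.3, 70.5 and 64.3 CPM in the 5 hpf libraries 2012_14, 2012_N3 and 2013_25, against 5.68, 33.5 and 26.2 CPM in the 3 hpf libraries 2012_N5, 2013_23 and 2013_33. The 5 hpf libraries sat close together and the 3 hpf libraries apart, with 2012_N5 lowest. The log2 fold change was 1.79 ± 0.580 (SE, edgeR) with an adjusted p of 1.00. Its ratio of 5 to 3 hpf was 12.4 in 2012_N (95% interval 11.02 to 14.04) and 1.92 in 2013_2 (1.74 to 2.11). Intervals of ratios are exact binomial, cover counting error only, and treat each read as a molecule, although libraries were amplified without molecular identifiers.

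Mle_010926, of 1207 bases, had 93.2, 30.3 and 18.3 CPM in the 5 hpf libraries 2012_14, 2012_N3 and 2013_25, against 0.190, 7.597 and 5.71 CPM in the 3 hpf libraries 2012_N5, 2013_23 and 2013_33. The lowest value, in 2012_N5, rested on 10 counts. The log2 fold change was 3.41 ± 1.15 (SE, edgeR) with an adjusted p of 1.00 in edgeR and 0.00138 where edgeR was run without the count floor. In 2012_N the ratio of 5 to 3 hpf was 158.9 (86.1 to 332.1) and in 2013_2 it was 2.41 (1.99 to 2.93).

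**Figure D2:**
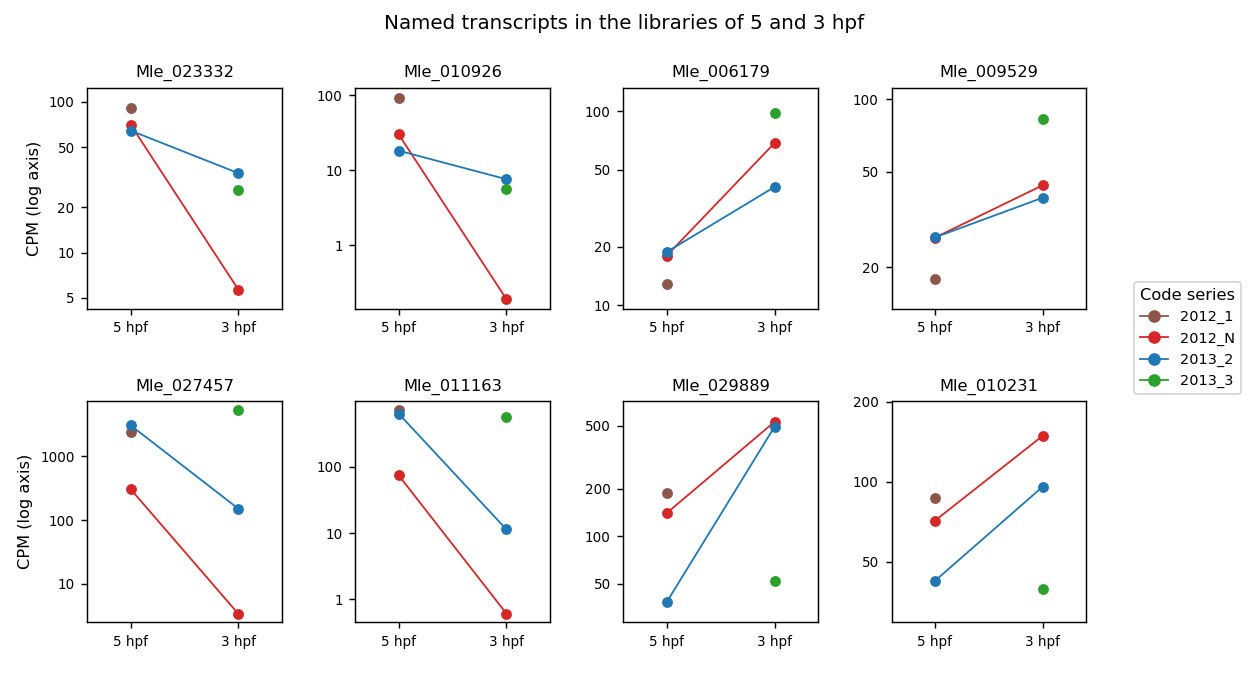
Levels (y, CPM, log axis that differs between panels) of 8 named transcripts in the libraries of 5 hpf (left of each panel) and 3 hpf (right); points are single libraries, colours mark code series and lines join the within-series pairs. The upper 4 do not overlap between hours, while in the lower 4 the 3 hpf library 2013_33 sits with the 5 hpf libraries or beyond them.

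Transcripts whose hours do not overlap were then counted. All 3 libraries of 5 hpf lay above all 3 of 3 hpf for 132 transcripts (1.06%) and below them for 270 (2.17%). Separation of 3 from 3 libraries cannot give a p under 0.1 in a two-sided exact permutation test. Libraries that did not differ by hour would give such transcripts too, and no excess over that was tested, so both lists are a description. Scaling by library totals alone turned this balance, to 251 higher and 83 lower, and with that scaling the median change of all tested transcripts was 0.054 against -0.024 here on the log2(CPM + 1) scale. The 132 were scarce, with a median of mean levels of 1.16 CPM, while the 270 had 40.6 CPM and all tested transcripts 17.1 CPM. Changes were larger among the 132, with a median log2 difference of 0.59 and 41 of at least 2-fold, than among the 270, with a median of -0.46 and 7 of at least 2-fold. With one library left out both counts can only grow, since fewer libraries must not overlap. The higher count grew most without 2013_33, to 913, and the lower count most without 2012_N3, to 1690. From under 1 CPM in all 3 libraries of 3 hpf, 8 transcripts reached at least 1 CPM in all 3 of 5 hpf, and 0 went the other way. At a floor of 10 CPM at the higher hour both counts were 0.

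Within code series the hours could be set side by side in 2 pairs of 1 library each, which give ratios with no replicate. In pair 2012_N, 216 transcripts (1.74%) were at least 2-fold higher at 5 hpf and 47 (0.379%) at least 2-fold lower, on the CPM + 1 scale. In pair 2013_2 the counts were 845 (6.81%) higher and 206 (1.66%) lower. Thus more transcripts were 2-fold higher than 2-fold lower at 5 hpf in both pairs, although the median change was -0.0069 in 2012_N and -0.16 in 2013_2. Of the 216, 79.6% were higher in 2013_2, against 32.5% of all tested, and of the 845, 75.6% were higher in 2012_N, against 49.01% of all tested. Among the lower transcripts the shares lay under those of all tested: of the 47, 38.3% were lower in 2013_2, against 66.9% of all tested, and of the 206, 32.04% were lower in 2012_N, against 50.9%. Over all tested transcripts the changes of the 2 pairs had a Pearson's r of 0.23 and a Spearman's rho of -0.0076, and 52.8% had one sign.

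**Figure D3:**
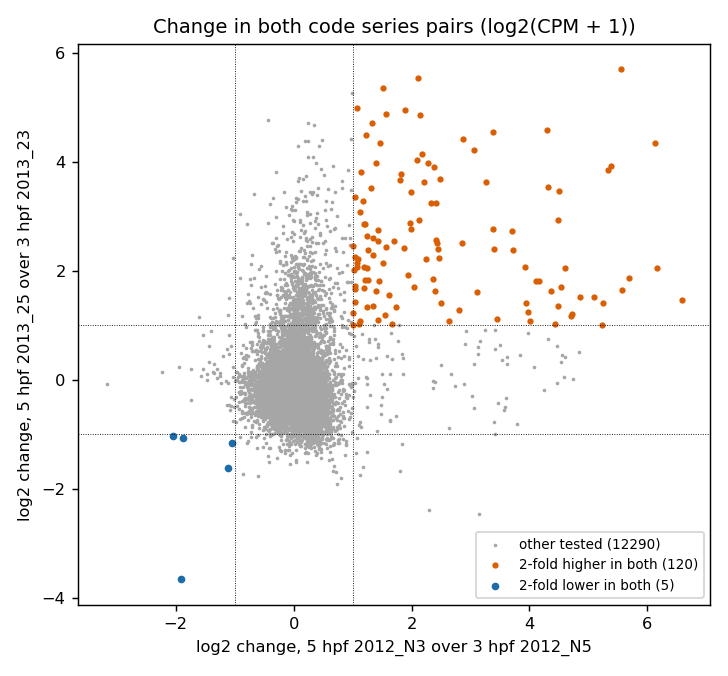
Change of each of 12415 tested transcripts (log2 difference of CPM + 1, 5 hpf minus 3 hpf) in pair 2012_N (x) and in pair 2013_2 (y), one point a transcript. Coloured points are the 120 transcripts at least 2-fold higher and the 5 at least 2-fold lower at 5 hpf in both pairs, and most others lie near 0 in one or both.

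At least 2-fold higher at 5 hpf in both pairs were 120 transcripts (0.967%), which make 55.6% of the 216 and 14.2% of the 845, and 5 transcripts (0.0403%) were at least 2-fold lower in both. Another 9 were 2-fold higher in 2012_N and 2-fold lower in 2013_2, and 4 the other way. The 120 are described first. Their median log2 change was 2.10 in 2012_N and 2.33 in 2013_2, values that chose them. The smaller of the 2 changes was 1.00 both in the member just inside the threshold and in the transcript just outside it. In both pairs, 36 were at least 4-fold higher. Their median length was 2459 bases (range 556 to 12384), against 1994 for all tested. They were scarce at 3 hpf in the pair libraries: 44 lay under 1 CPM in both 2012_N5 and 2013_23, and 48 reached 10 CPM in both 2012_N3 and 2013_25. Of the 120, 19 lay higher at 5 hpf with no overlap between the hours over the 6 libraries, against 1.06% of all tested. In edgeR 3 had an unadjusted p under 0.05, against 0.516% of all tested. The pair libraries chose the 120, so these counts of levels and overlap are partly fixed by that choice and are a description.

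The most abundant of the 120 was Mle_027457, of 1371 bases, with 2431, 308 and 3075 CPM in the 5 hpf libraries 2012_14, 2012_N3 and 2013_25, against 3.39, 151 and 5419 CPM in the 3 hpf libraries 2012_N5, 2013_23 and 2013_33. Its highest level of the 6 was in a 3 hpf library. The ratio of 5 to 3 hpf was 90.8 (78.3 to 105.9) in 2012_N and 20.4 (19.6 to 21.1) in 2013_2, while the log2 fold change over all 6 libraries was 0.061 and turned negative when any of 4 libraries was left out. Next was Mle_011163, of 1520 bases, with 721, 74.7 and 635 CPM in the 5 hpf libraries, against 0.609, 11.3 and 554 CPM in the 3 hpf libraries, in that order. Here too 2013_33 stood with the 5 hpf libraries, and the ratios were 122.6 (86.7 to 179.6) in 2012_N and 56.1 (49.1 to 64.4) in 2013_2. Its log2 fold change over the 6 libraries was 1.34, and 6.35 without 2013_33, with an adjusted p in edgeR of 1.00 and 0.874.

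Levels of the 120 were then read in each library of both hours. The median CPM was 18.8, 5.89 and 19.99 in the 5 hpf libraries 2012_14, 2012_N3 and 2013_25, against 0.229, 1.52 and 23.9 in the 3 hpf libraries 2012_N5, 2013_23 and 2013_33. Of these, 2012_14 and 2013_33 took no part in the 2-fold choice, but they entered the floor on counts that set which transcripts were tested. A transcript under that floor in both 2012_N5 and 2013_23 could be tested only if 2012_14 or 2013_33 reached it. Their levels in the 120 are thus partly conditioned by the floor. The library 2012_14 was above both 2012_N5 and 2013_23 in 118 of 120, against 34.7% of all tested. The 3 hpf library 2013_33 was above both in 119 of 120, against 29.9% of all tested. Over 2013_23 alone it was at least 2-fold higher in 101 of 120 (9.42% of all tested) and at least 2-fold lower in 0 (8.26% of all tested), although both are labelled 3 hpf. Set against each other, 2012_14 over 2013_33 had a median log2 change of -0.14 over the 120, with 17 at least 2-fold higher (9.25% of all tested) and 29 at least 2-fold lower (9.45% of all tested). All comparisons with 2012_N5 or 2013_23 reuse libraries whose low values chose the 120, so their counts are partly fixed by that choice and are a description. The comparison of 2012_14 with 2013_33 shares no library with the 2-fold choice, although both entered the floor on counts. These libraries also differ in code year and code series as well as in hour.

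The other hours placed this order in the time course. In series 2013_2 the median CPM of the 120 was 0.153 in the 1 hpf library, 0.164 in that of 2 hpf, 1.52 at 3 hpf, 13.9 in the 4 hpf library and 19.99 by 5 hpf. The 3 and 5 hpf libraries of series 2013_2 and 2012_N chose the 120, so the step between those hours is fixed by the choice. Series 2013_3 had a median of 20.2 in its 2 hpf library, 23.9 in that of 3 hpf and 21.4 in that of 4 hpf, so that the 2 hpf library 2013_32 already had the level that 2013_2 reached at 5 hpf. In series 2013_4, which holds no library of 3 or 5 hpf, it was 0.0976 CPM in the 1 hpf library and 0.0583 CPM in that of 2 hpf. There the 6 hpf library was at least 2-fold above the 2 hpf library in 115 of 120 (21.7% of all tested), with a median log2 change of 4.21 against -0.11 over all tested, and at least 2-fold above the 1 hpf library in 113 (16.6% of all tested). From 6 to 9 hpf in that series 43 were at least 2-fold lower (12.7% of all tested) and 12 at least 2-fold higher (14.2% of all tested). Series 2012_N followed no such order, with median CPM of 14.6 in its 1 hpf library, 8.23 in that of 2 hpf, 0.229 in that of 3 hpf, 21.2 in that of 4 hpf and 5.89 in that of 5 hpf. Its 1 hpf library had fewer counts than the 9 hpf library 2012_37 in 0 transcripts, and with the counts of 2012_37 subtracted the 1 hpf median was 0.263.

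**Figure D4:**
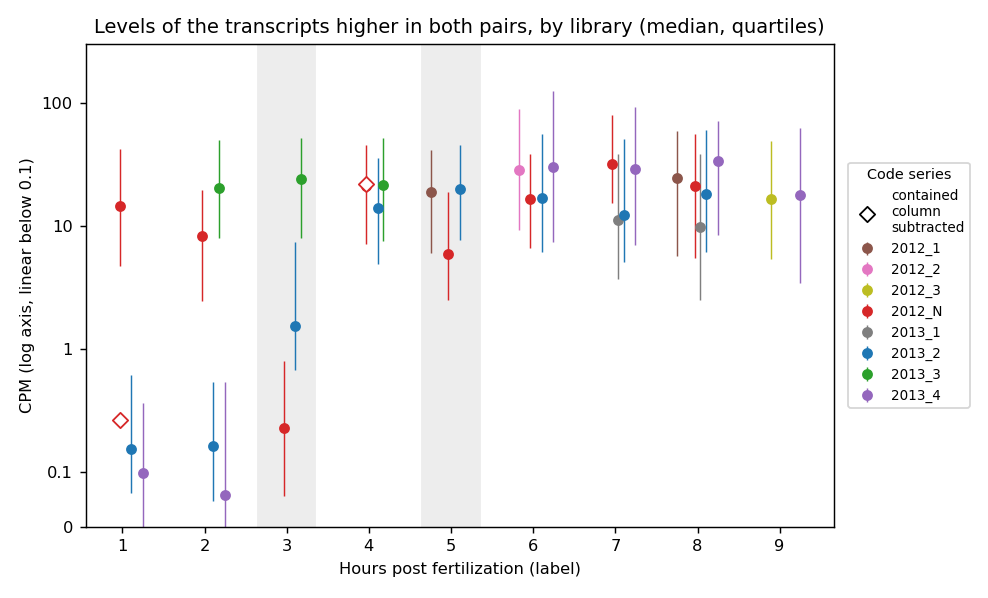
Level (y, CPM, log axis with a linear stretch near 0) of the 120 transcripts at least 2-fold higher at 5 hpf in both pairs, by labelled hour (x), as median and quartiles over transcripts in each library; colours mark code series and diamonds give 2 libraries after subtraction of a library that exceeds them in no transcript. The 3 hpf library 2013_33 (23.9) is level with the 5 hpf libraries 2012_14 (18.8) and 2013_25 (19.99).

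The 5 transcripts at least 2-fold lower at 5 hpf in both pairs made 10.6% of the 47 and 2.43% of the 206, and Mle_006179 is one of them. Mle_029889, of 1959 bases, had 188, 140 and 38.1 CPM in the 5 hpf libraries 2012_14, 2012_N3 and 2013_25, against 531, 494 and 51.8 CPM in the 3 hpf libraries 2012_N5, 2013_23 and 2013_33. The low 3 hpf value again belonged to 2013_33, and the hours overlapped. Its ratio of 5 to 3 hpf was 0.263 (0.256 to 0.271) in 2012_N and 0.0770 (0.0716 to 0.0828) in 2013_2, and its log2 fold change over the 6 libraries was -1.56. Mle_010231, of 880 bases, had 87.2, 71.4 and 42.4 CPM in the 5 hpf libraries, against 149, 95.9 and 39.7 CPM in the 3 hpf libraries, in the same order. Its lowest level lay at 3 hpf, and the log2 fold change was -0.50, with -0.016 without 2012_N5 and -0.87 without 2013_33. In series 2013_4, 4 of the 5 were at least 2-fold lower at 6 than at 2 hpf (24.2% of all tested).

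Transcripts were also grouped by their course from 1 to 8 hpf, from libraries coded 2013 that are not among the 6. Of these, 1 hpf 2013_21 and 8 hpf 2013_28 belong to the code series of pair 2013_2, so the classes are not independent of that pair's series. Scarce then rising are 420 transcripts with a mean under 1 CPM at 1 hpf and at least 10 CPM at 8 hpf. Their summed share of all counts was 0.389%, 0.193% and 0.552% in the 5 hpf libraries 2012_14, 2012_N3 and 2013_25, against 0.0511%, 0.0834% and 0.618% in the 3 hpf libraries 2012_N5, 2013_23 and 2013_33. The 2 pair libraries of 3 hpf were lower than every 5 hpf library, and 2013_33 was higher than every one. The means were 0.378 ± 0.180% at 5 hpf and 0.251 ± 0.318% at 3 hpf (SD, n = 3 each), with p = 0.6 in a two-sided exact permutation test and 0.96 after Benjamini-Hochberg adjustment over the 6 classes. The median log2 change of these transcripts was 0.28 over the 6 libraries, and 0.20 with classes made without series 2013_2. For the classes as defined it was 0.78 without 2013_33 and -0.043 without 2013_23. It was 0.16 in pair 2012_N and 1.51 in pair 2013_2. At least 2-fold higher at 5 hpf were 64 of the 420 in 2012_N, 15.2% against 1.74% of all tested. In 2013_2 they were 274, 65.2% against 6.81% of all tested. The median was -0.76 for 2012_14 over 2013_33, with 178 at least 2-fold lower, 42.4% against 9.45% of all tested. Of the 120 transcripts higher in both pairs, 54 were in this class, which is 45.0% of them against 3.38% of all tested, while 61 were in none of the named classes, 50.8% against 32.1% of all tested. The early and falling class, 19.2% of all tested, and the early and steady class, 35.9%, held 0 of the 120.

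Transcripts abundant in the early embryo had smaller median differences between the hours, over the 6 libraries, than the scarce then rising ones. Early and falling are 2380 transcripts of at least 10 CPM at 1 hpf that were at least 2-fold lower at 8 hpf, on the CPM + 1 scale. They took 33.9 ± 2.71% of the counts at 5 hpf and 34.1 ± 2.82% at 3 hpf (SD, n = 3 each), with p = 1.0 in the exact permutation test. Their median log2 change was -0.12 over the 6 libraries, against -0.024 for all tested, and it was -0.036 in pair 2012_N and -0.41 in pair 2013_2, but 0.084 for 2012_14 over 2013_33. At least 2-fold lower at 5 hpf were 10 of them in 2012_N, 0.420% against 0.379% of all tested, and 69 in 2013_2, 2.90% against 1.66% of all tested. The median of -0.12 was -0.027 with library totals, -0.048 with DESeq2's size factors and 0.0008 without 2013_25. With classes made without series 2013_2 it was -0.053. Early and steady are 4456 transcripts with at least 10 CPM at 1 hpf and a change under 2-fold by 8 hpf, which took 62.9 ± 2.07% of the counts at 5 hpf and 63.2 ± 2.65% at 3 hpf. Their median change was -0.062, and 0.032 with library totals as the scale, so its sign depends on the scaling. The 1037 transcripts scarce at both ends had a median change of 0.079, and 41 of the 132 higher transcripts without overlap were among them, which is 3.95% of the class against 1.06% of all tested.

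**Figure D5:**
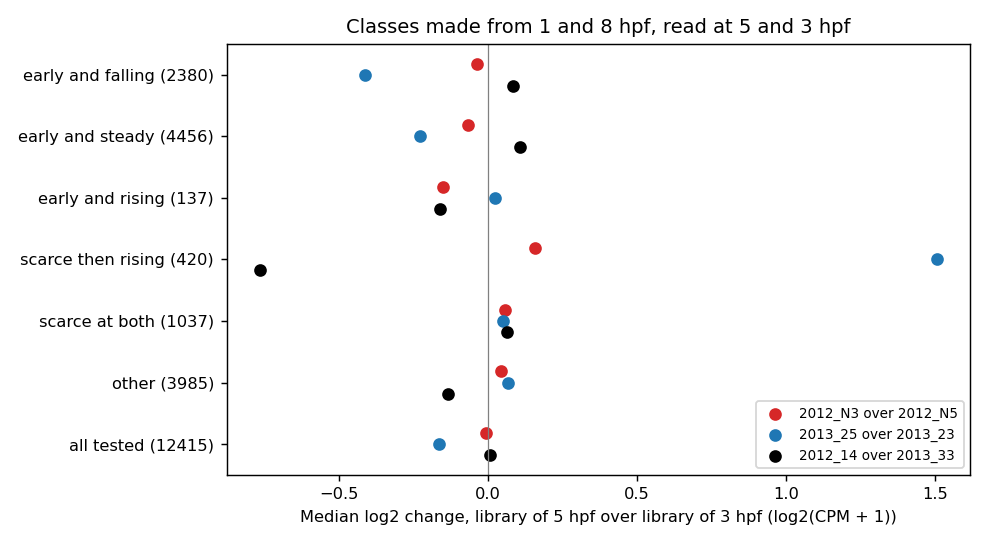
Median log2 change (x, log2(CPM + 1), 5 hpf minus 3 hpf) of transcripts grouped by their course from 1 to 8 hpf (rows, with numbers of transcripts), in each pairing of a 5 hpf with a 3 hpf library. Transcripts scarce at 1 hpf and rising by 8 hpf had medians of 0.16 and 1.51 in pairs 2012_N and 2013_2 and -0.76 for 2012_14 over 2013_33.

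The change from 3 to 5 hpf was related to transcript length in opposite ways in the pairs. Across the tested transcripts, Spearman's rho of length with the change was -0.30 in 2012_N, 0.21 in 2013_2 and 0.22 for 2012_14 over 2013_33, a description across transcripts that share their libraries. In 2012_N the median change was 0.10 among the shortest of 4 length classes, of 301 to 1282 bases, and -0.14 among the longest, of 3036 to 29348 bases. In 2013_2 it was -0.23 among the shortest and -0.077 among the longest. Of the 206 transcripts at least 2-fold lower at 5 hpf in 2013_2, 151 were in the shortest class, and of the 845 higher ones 345 were in the longest. The part that length or RNA quality has in the lists above was not tested.

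One transcript took the largest share of counts in each of the 6 libraries. Mle_005005 held 1.80%, 3.11% and 3.80% of the counts in the 5 hpf libraries 2012_14, 2012_N3 and 2013_25, against 1.83%, 8.66% (95% Wilson interval 8.65% to 8.67%) and 2.80% in the 3 hpf libraries 2012_N5, 2013_23 and 2013_33. The library 2013_23 stood apart and the others overlapped. Its log2 fold change was -0.74 over the 6 libraries and 0.23 without 2013_23. The 100 most counted transcripts of each library together took 21.6% to 27.5% of the counts at 5 hpf and 24.6% to 27.7% at 3 hpf.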

How the data were processed

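Whole-number counts of reads per transcript, deposited by the authors for 31 libraries and 31067 transcripts, were used as deposited, with the transcript length in bases from the other column of the deposited table. Bowtie2 and SAMtools are named per the submitters' processing notes; nothing on settings, reference, strand or counting is given in the sources used here. Counts of near-identical or overlapping transcripts are therefore uncertain. The deposited RPKM values were not used, because they divide the counts by one total common to all libraries. Library totals of the 6 libraries ran from 17608264 to 80243917.

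The 6 libraries of 5 and 3 hpf were fitted in edgeR 4.0.16 (R 4.3.3) with the quasi-likelihood test, TMM factors from all 31 libraries, the default filter on low counts over the 6 and Benjamini-Hochberg adjustment at 0.05. The other hours were kept out of the fit because some of their columns are below another column in 0 transcripts. Fold changes named as log2 differences are medians or single values of log2(CPM + 1). The axis and the exact permutation tests used Python 3.11.15, numpy 2.4.6 and scipy 1.17.1. The script was tested on simulated data with less spread between libraries than here and no effect of code series. That checks the code and not the power or error rate in these data. Alternatives were other scalings, no filter, a filter of 1 CPM, DESeq2 1.42.0, limma 3.58.1 on RPKM computed per library from the counts, fits over more libraries, code year or code series as a term, a pseudocount of 0.1, other fold limits and leaving out each library. Code series as a term over more hours, and the non-overlap counts with a library left out, were added after seeing the data.

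Named were, in each direction, the 2 smallest edgeR p among transcripts without overlap, of one direction in both pairs and of at least 10 CPM at the higher hour, the 2 most abundant of the transcripts at least 2-fold changed in both pairs, and the most counted transcript. Members, classes and rules were chosen with earlier results of these data known. No replicate numbers pair the libraries. The code series pair 4 of them, by their codes and by their likeness.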

Additional observations from a re-analysis of the deposited data

Results flagged for a closer look

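Mle_005005, the most counted transcript of the 6 libraries, differed between the hours in opposite directions in the within-series pairs. Its level at 5 hpf differed from that at 3 hpf by -1.59 on the log2(CPM + 1) scale in pair 2013_2 and by 0.68 in pair 2012_N. It had 31640 CPM at 5 hpf and 95050 CPM at 3 hpf in 2013_2, and 34560 CPM at 5 hpf and 21520 CPM at 3 hpf in 2012_N. Transcripts abundant at 1 hpf and at least 2-fold higher by 8 hpf, 137 in all, had a median log2 change of 0.024 in pair 2013_2 and -0.15 in pair 2012_N. Each pair holds 1 library an hour, and neither difference between the pairs was tested. A single library that stands apart is not looked for in groups of 3.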

How the results depend on the processing

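The count of transcripts called was 0 under every alternative run except 2: 13 without the filter on low counts (6 higher and 7 lower at 5 hpf, of 27771 tested) and 1 with DESeq2. A code series block over the 4 paired libraries called 0, and so did code year as a term and both fits with code series as a term over more hours. Transcripts without overlap, 132 higher and 270 lower, numbered 251 higher and 83 lower with library totals and 73 higher with a filter of 1 CPM, which tests fewer transcripts; leaving out each library gave 284 to 913 higher and 597 to 1690 lower, where fewer libraries must not overlap. The 120 higher and 5 lower in both pairs became 230 and 45 at 1.5-fold, 36 and 0 at 4-fold, and 410 and 10 with a pseudocount of 0.1, and the 5 became 2 with library totals. The median change of early and steady transcripts was 0.032 with library totals, and that of transcripts scarce at both ends 0.27 with a pseudocount of 0.1; the cause was not tested. Leaving out each library, the log2 fold change of Mle_027457 ranged from -0.52 (without 2012_N5) to 4.65 (without 2013_33), below 0 also without 2013_23 (-0.48), 2013_25 (-0.44) and 2012_14 (-0.14), and that of Mle_005005 from -1.09 (without 2012_N5) to 0.23 (without 2013_23). Class medians have no test, and other settings moved some by less than the spread between libraries, yet across 0: that of scarce then rising transcripts was 0.28 over the 6 libraries and -0.043 to 0.78 with a library left out, that of early and falling ones -0.24 to 0.0008, and that of early and rising ones -0.017 over the 6, 0.073 with library totals and 0.12 without 2012_N3. With classes made without series 2013_2, the median of early and rising transcripts was -0.15. The median of scarce then rising transcripts was 0.68 with a pseudocount of 0.1. The axis difference kept its sign, at 5.93 to 36.7 with a library left out. Depth limits transcripts near 1 CPM, which rest on 19.4 to 70.6 counts in each of the 6 libraries.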

Other observations

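Transcripts at least 2-fold higher at 5 hpf in 1 pair alone were read in series 2013_4, which did not choose them. Of the 725 higher in pair 2013_2 alone, 88.4% were at least 2-fold higher at 6 than at 2 hpf in series 2013_4, against 21.7% of all tested, and 0 were 2-fold lower. Of the 96 higher in pair 2012_N alone, 63.5% were higher and 3.13% lower in that comparison. The 725 had a median length of 2707 bases and the 96 a median of 1148 bases, against 1994 bases for all tested. Of the 206 transcripts lower at 5 hpf in pair 2013_2, 27.7% were 2-fold higher and 27.2% 2-fold lower at 6 than at 2 hpf, against 21.7% and 24.2% of all tested. Of the 47 lower in pair 2012_N, 42.6% were higher and 25.5% lower.

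Transcripts without overlap differed from each other in the same reading. Of the 132 higher at 5 hpf, 56.1% were at least 2-fold higher and 6.82% lower at 6 than at 2 hpf in series 2013_4. Of the 270 lower at 5 hpf, 10.7% were higher and 22.2% lower. Over all tested 21.7% were higher and 24.2% lower, so the share lower among the 270 was not above that of all tested.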
